A study of Mus musculus with 6 samples.

Results

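The guanylate-binding proteins (GBPs) are a family of interferon-inducible genes, and 10 of them, Gbp2, Gbp2b, Gbp3, Gbp4, Gbp5, Gbp6, Gbp7, Gbp8, Gbp9 and Gbp10, are described here among the 17382 genes of a deposited table. They were picked by gene symbol, and the choice was made with their genotype difference in these libraries already known. That difference is therefore given as a description, and no test of it supports anything. The libraries came from myeloid cells of bone marrow of C57BL/6 mice aged 2 months. They were grown for 3 days in 40 ng/mL M-CSF, on which macrophages depend for growth. The 3 knockout libraries came from mice that have both floxed PD-L1 alleles and a lysozyme-Cre driven by a lysozyme promoter active in macrophages, monocytes and neutrophils. The 3 wild-type libraries came from littermates that carry the same floxed alleles without the Cre, so no group carries the Cre alone. The triplicates are called biological in the design text, and it is not said whether mice were pooled.

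GBPs are large GTPases of the dynamin superfamily. In mouse macrophages interferon gamma induces them strongly, and the proteins then gather on vacuoles that hold parasites or bacteria and on bacteria in the cytosol. There they help to break these membranes open and to bring bacterial lipopolysaccharide and DNA to the inflammasome caspases. Cd274 encodes PD-L1, which restrains T cells through PD-1 and is itself induced by interferon gamma.

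Several facts of the series touch every value below. Each library held 52356473 to 77319068 reads and had 11525 to 11680 genes at or above 1 TPM. TPM is a level per gene length, scaled to the same total in every library. Of 10 macrophage markers 9 are in the table, and all 9 reached 1 TPM in every library, which goes with the label. Cd274 was at 22.6 ± 5.7 TPM in the knockout libraries and 19.0 ± 4.2 TPM in the wild-type ones (n = 3 each, ± SD), so the labels could not be checked by the level of the targeted gene. Lyz2, the lysozyme gene into which the widely used lysozyme-Cre is inserted, had 19101, 19354 and 13232 TPM in knockout 1, 2 and 3, against 26707, 27493 and 40358 TPM in wild type 1, 2 and 3. Every knockout library was below every wild-type library, but its log2 difference of -0.87 ± 0.27 did not pass in limma (adjusted p = 1.0). Whether the floxed exons were lost cannot be read from a value over the whole gene. The labels set every direction given here. The first principal component, with 44.3% of the variance, did not follow genotype. Knockout 3 (31.8) lay there with wild type 1 and 2 (19.8 and 19.1), and wild type 3 (-30.1) lay with knockout 1 and 2 (-23.1 and -17.4).

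The members lie in a pair of clusters on mm10. Those on chromosome 3, all on the plus strand, are Gbp5, Gbp7, Gbp3, Gbp2b and Gbp2, between bases 142496934 and 142638008. Those on chromosome 5, all on the minus strand, are Gbp8, Gbp9, Gbp4, Gbp10 and Gbp6, between bases 105014153 and 105293699. All 10 are protein-coding in the GENCODE M21 annotation. Within 500 kb of these clusters the table has 12 genes that are not of the family, 11 of which were tested. Their log2 differences between knockout and wild type ran from -0.19 to 0.08, and the groups overlapped for all 12.

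RefSeq promoter windows on GRCm38.p6, from 250 bases before to 50 after the annotated start, were matched for the 5 chromosome 3 members. No window was at hand for the chromosome 5 members, so their promoters were not searched. The matched windows were searched for a pair of motifs through which interferon signals reach genes. The core of the interferon-stimulated response element (ISRE), bound by interferon regulatory factors, was taken as GAAA, any 2 bases and GAAA again. The core of the gamma-activated site (GAS), through which interferon gamma acts on genes, was taken as TTCNNNGAA, which is its own reverse complement. TATAAA was searched as well and was present in Gbp3 only, at -207 on the opposite strand, against 13.6% of all windows and 15.7% of genes with a window. With both strands searched and overlapping matches kept, all 5 members had an ISRE core. Of 27025 genes with a window 3.99% hold such a core, and of 32851 windows 3.44%. Every ISRE match in the 5 members lay upstream of the start and in reverse, so that it reads as a pair of TTTC runs along the gene's strand. The stretches around these matches are shown because they are what the cluster has in common outside its expression values. ISRE cores are in capitals.
Gbp2, chr3:142620584-142620633, plus strand: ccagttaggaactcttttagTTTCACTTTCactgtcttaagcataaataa
Gbp2b, chr3:142594690-142594739, plus strand: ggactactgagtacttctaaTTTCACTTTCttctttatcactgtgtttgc
Gbp3, chr3:142559979-142560034, plus strand: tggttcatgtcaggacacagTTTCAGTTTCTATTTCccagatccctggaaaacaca
Gbp7, chr3:142530263-142530312, plus strand: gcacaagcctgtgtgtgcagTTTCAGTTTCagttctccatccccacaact
Gbp5, chr3:142496749-142496798, plus strand: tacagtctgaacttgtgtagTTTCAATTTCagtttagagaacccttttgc

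The letters of the core are the same in Gbp2 and Gbp2b, and Gbp3 and Gbp7 share another version. In Gbp3 a further core overlaps the shared one. Counted from the start, the matches began at -59 in Gbp2, at -53 in Gbp7 and at -45 and -39 in Gbp3. They began farther out, at -137 in Gbp2b and at -165 in Gbp5. For Gbp3 a further annotated start had a window without an ISRE core.

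A GAS core was present in Gbp5 and Gbp7 only of the 5, at -245 and -52 in Gbp5 and at -106 and -87 in Gbp7. Of all windows 8.30% hold a match, and of genes with a window 9.55%. The version TTCTCAGAA occurs in both. The whole windows of these members are shown because they hold both motifs, again with ISRE and GAS cores in capitals.
Gbp5, chr3:142496684-142496983, plus strand: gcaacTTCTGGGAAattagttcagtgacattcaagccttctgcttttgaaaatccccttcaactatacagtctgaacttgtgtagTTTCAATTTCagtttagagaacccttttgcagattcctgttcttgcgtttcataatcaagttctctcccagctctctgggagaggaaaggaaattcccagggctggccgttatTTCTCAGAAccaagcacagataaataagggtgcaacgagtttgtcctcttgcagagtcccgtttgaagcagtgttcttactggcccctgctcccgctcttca
Gbp7, chr3:142530086-142530385, plus strand: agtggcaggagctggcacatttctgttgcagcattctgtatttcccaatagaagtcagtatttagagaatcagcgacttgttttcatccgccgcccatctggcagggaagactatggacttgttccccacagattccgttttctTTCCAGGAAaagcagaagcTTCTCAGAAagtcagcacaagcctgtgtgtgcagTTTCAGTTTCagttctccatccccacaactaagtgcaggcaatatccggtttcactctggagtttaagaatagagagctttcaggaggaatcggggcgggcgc
Such a match is a run of letters and not evidence of binding.

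**Figure D1:**
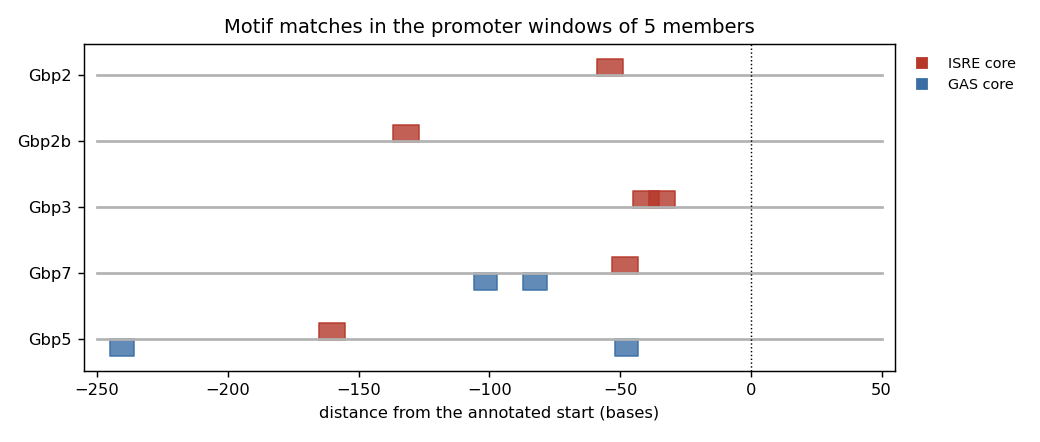
ISRE cores (red) and GAS cores (blue) in the promoter windows of 5 chromosome 3 members, drawn by distance in bases from the annotated start. All 5 windows hold an ISRE core upstream of the start, and Gbp5 and Gbp7 also hold 2 GAS cores each.

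Summed over the 10 members, the level of the family was 113, 144 and 195 TPM in knockout 1, 2 and 3, against 37.9, 30.9 and 78.2 TPM in wild type 1, 2 and 3. Every knockout library lay above every wild-type library, and wild type 3 stood apart from the other wild-type libraries, nearer to knockout 1. In such bulk samples more cells that express a gene and more RNA per cell cannot be told apart. Behind these levels stood 11523 to 15239 reads per knockout library and 2956 to 8185 reads per wild-type library.

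Gbp2 (chr3:142620663-142638008), which gathers on parasite vacuoles and on cytosolic bacteria, was the most abundant member in every library but wild type 2. It had 43.4, 62.0 and 95.1 TPM in knockout 1, 2 and 3, against 9.37, 6.76 and 20.9 TPM in wild type 1, 2 and 3. The lowest knockout value was above the highest wild-type value by 22.5 TPM, and library 3 was the highest of its group in each genotype. The log2 difference, knockout minus wild type on log2(TPM + 0.1), was 2.52 ± 0.46 (SE).

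Gbp5 (chr3:142496934-142522344) promotes assembly of the NLRP3 inflammasome and acts with Gbp2 in the AIM2 inflammasome response to cytosolic bacteria. It had 8.72, 10.5 and 12.9 TPM in knockout 1, 2 and 3, against 1.91, 1.5 and 6.17 TPM in wild type 1, 2 and 3. The groups lay apart, but the wild-type values spread far more, because wild type 3 was 3.62 times the mean of the other wild-type libraries. The log2 difference was 1.97 ± 0.50.

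Gbp3 (chr3:142560052-142573212) and Gbp7 (chr3:142530336-142550151), which has been tied to autophagy and oxidase assembly on bacterial vacuoles, shared a pattern. Gbp3 had 17.5, 20.6 and 20.9 TPM in knockout 1, 2 and 3, against 5.20, 4.38 and 13.4 TPM in wild type 1, 2 and 3. Gbp7 had 22.0, 22.7 and 21.8 TPM in knockout 1, 2 and 3, against 8.55, 6.74 and 19.7 TPM in wild type 1, 2 and 3. The knockout libraries were nearly level for each gene, with a coefficient of variation of 9.58% for Gbp3 and 2.17% for Gbp7, against 65.1% and 60.1% in wild type. For Gbp7 the groups stayed apart by 2.09 TPM, since wild type 3 came close to the knockout libraries. The log2 differences were 1.52 ± 0.40 for Gbp3 and 1.08 ± 0.37 for Gbp7. Over the fits that each left out a library, that of Gbp7 ran from 0.77 without wild type 2 to 1.53 without wild type 3.

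Gbp2b (chr3:142594847-142619176), the gene long known as mouse Gbp1, was near the limit of detection. It had 12, 21 and 29 reads in knockout 1, 2 and 3 (0.144, 0.272 and 0.424 TPM), against 0, 0 and 1 reads in wild type 1, 2 and 3. Every knockout value was above every wild-type value. It passed the filter on low values only through the knockout libraries. Per unit of depth the summed reads were 61.4 times as high in knockout as in wild type, with an exact interval of 10.6 to 2465 that covers counting error only. On the log2 scale its difference was 1.80 ± 0.32 and depended on the number added before the log, from 0.34 with 1 TPM added to 4.34 with 0.01 TPM added.

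On chromosome 5, Gbp6 (chr5:105270702-105293699) and Gbp4 (chr5:105115767-105139586) stood out by knockout 3. Knockdown of Gbp6 has been reported to raise bacterial load in mouse macrophages, and Gbp4 has been reported to bind the interferon regulatory factor IRF7. Gbp6 had 3.76, 4.94 and 12.4 TPM in knockout 1, 2 and 3, against 0.952, 0.715 and 1.59 TPM in wild type 1, 2 and 3. Gbp4 had 3.05, 4.08 and 9.21 TPM in knockout 1, 2 and 3, against 1.42, 1.23 and 1.79 TPM in wild type 1, 2 and 3. In knockout 3 these genes were at 2.86 and 2.58 times the mean of the other knockout libraries, while the groups did not overlap. The log2 differences were 2.46 ± 0.48 for Gbp6 and 1.67 ± 0.40 for Gbp4, and 1.96 and 1.21 without knockout 3.

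Gbp8 (chr5:105014153-105053561) and Gbp9 (chr5:105078394-105110292) are the other measured members of this cluster, and Gbp9 had the smallest log2 difference of the 9 tested. Gbp8 had 2.65, 3.38 and 4.22 TPM in knockout 1, 2 and 3, against 1.19, 1.46 and 2.29 TPM in wild type 1, 2 and 3. Gbp9 had 12.1, 15.2 and 17.4 TPM in knockout 1, 2 and 3, against 9.29, 8.11 and 12.3 TPM in wild type 1, 2 and 3. The groups of Gbp8 did not overlap, and those of Gbp9 did, since knockout 1 was 0.23 TPM below wild type 3. The log2 differences were 1.03 ± 0.28 and 0.59 ± 0.20.

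Gbp10 (chr5:105215699-105239533) was hardly detected and did not pass the filter. It had 0, 4 and 16 reads in knockout 1, 2 and 3, against 2, 0 and 3 reads in wild type 1, 2 and 3, so the groups overlapped. The ratio of summed reads per unit of depth was 3.96 (exact interval 1.44 to 13.5, counting error only), and 16 of the 20 knockout reads were in knockout 3.

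The levels of Gbp6 and Gbp10 are uncertain because most of their sequence also occurs in other genes. Of the stretches of 50 bases in GENCODE M21 transcripts, 70.7% of those in Gbp6 and 84.1% of those in Gbp10 also occur in transcripts of another gene. For Gbp6 the other gene was mostly Gm43302, which has no row in the table, and for Gbp10 it was mostly Gbp6. For the other 8 members the share was 1.44% to 18.1%. How reads that map to several genes were counted is not given in the sources used here.

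**Figure D2:**
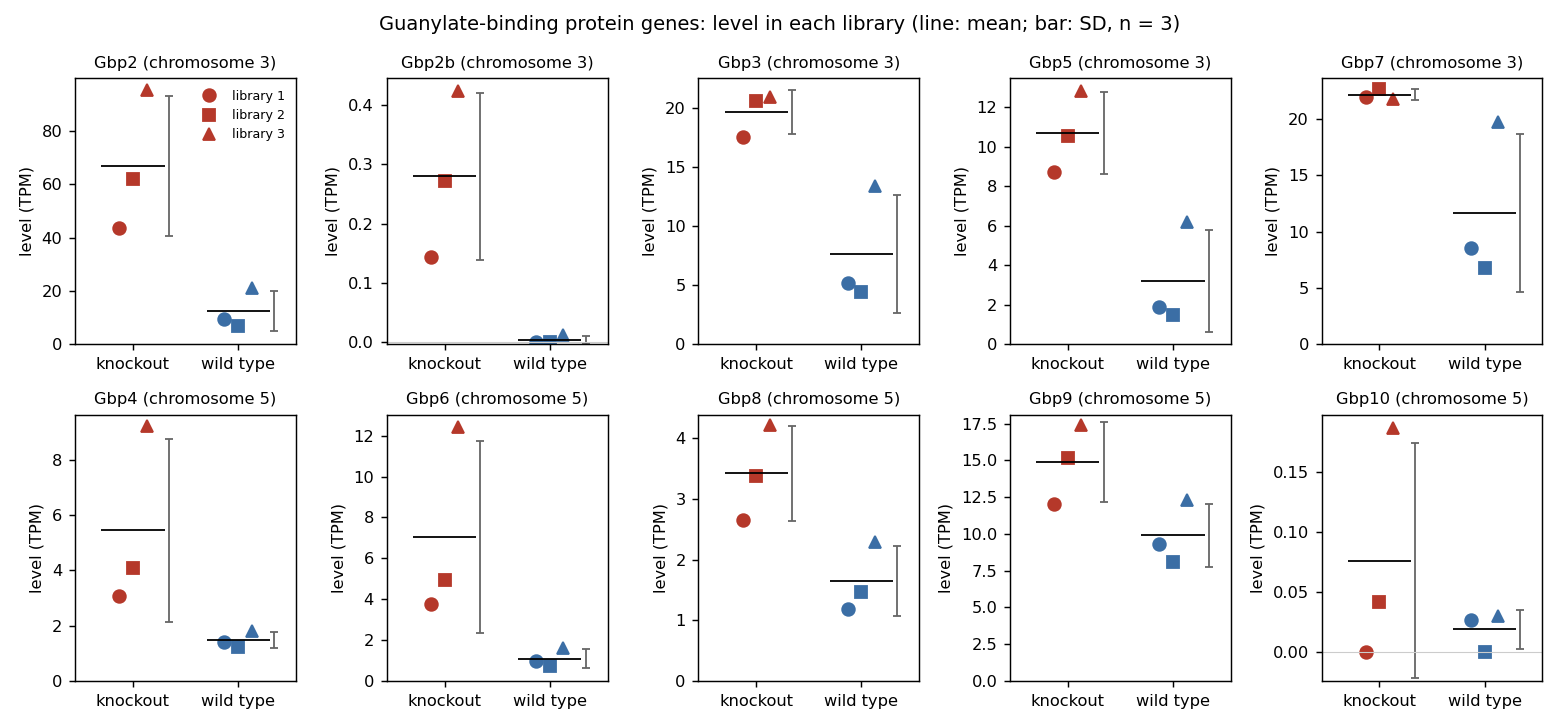
Level in TPM (vertical axis, a scale of its own per panel) of the 10 members in each library, with knockout (red) left of wild type (blue), the mean as a line and the SD of 3 libraries as a bar. Wild type 3 is the highest wild-type library in all 10 panels, and knockout 3 is the highest knockout library in 9, the exception being Gbp7.

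Of the 10 members, 9 were tested. Gbp2b passed through the knockout libraries alone, and 8 had at least 0.1 TPM in every library. In the limma fit over 13722 genes 0 of the 9 passed at an adjusted p under 0.05, as did 0.0% of all genes. Adjusted p-values in limma were 0.826 for Gbp2b, 0.84 for Gbp2 and 1.0 for the others. At an unadjusted p under 0.05 all 9 were higher in knockout, as were 1.25% of all genes, and limma-voom on reads also called 0. The groups did not overlap for 8 of the 9, all higher in knockout, as for 2.84% of all genes tested. The log2 difference was above 1 for 8 of the 9, as for 0.743% of all genes tested. The median log2 difference was 1.60 over the 8 members measured in every library and 0.00 over all genes tested. Nothing is read from these counts, since the members were chosen with this contrast known.

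By the authors' deposited table, 6 of the 10 members are called, all higher in knockout, as are 0.242% of the 17382 genes. That table's adjusted p-values are 2.4e-07 for Gbp2, 3.4e-07 for Gbp2b, 7.5e-07 for Gbp6, 0.000289 for Gbp4, 0.0187 for Gbp5 and 0.0283 for Gbp3. Gbp7, Gbp8, Gbp9 and Gbp10 are not called there, with adjusted p-values of 0.454, 0.333, 0.725 and 1.0 in the authors' deposited table.

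Without knockout 3 and wild type 3, which stood apart on the first principal component, 7 of the 9 members passed the limma threshold, as did 5.06% of all genes toward higher in knockout. These were Gbp2, Gbp3, Gbp4, Gbp5, Gbp6, Gbp7 and Gbp8, with adjusted p-values in limma from 0.0159 to 0.0348. Genotype and the position on the first component then coincide among the 4 libraries left, and they cannot be told apart.

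**Figure D3:**
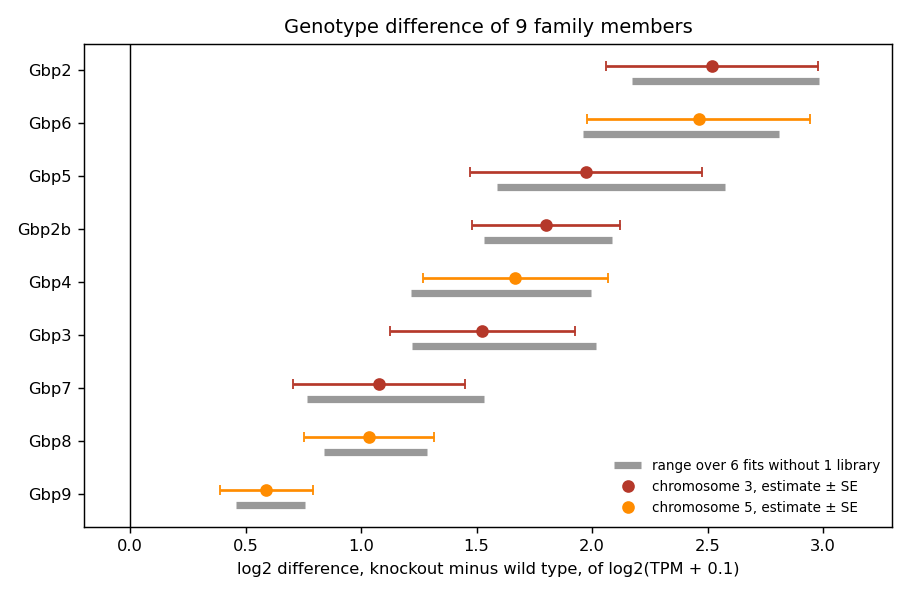
Log2 difference, knockout minus wild type, of log2(TPM + 0.1) for the 9 tested members (points, with SE bars), and the range over the 6 fits without a library (grey). The points run from 0.59 for Gbp9 to 2.52 for Gbp2, and no grey range reaches 0.

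The makeup of the family differed between the groups along with its total. Gbp2 held 38.4%, 43.1% and 48.9% of the summed level in knockout 1, 2 and 3, against 24.7%, 21.9% and 26.8% in wild type 1, 2 and 3. Gbp9 held 10.7%, 10.6% and 8.96% in knockout 1, 2 and 3, against 24.5%, 26.3% and 15.7% in wild type 1, 2 and 3. Neither share overlapped between the groups, so Gbp2 made up more and Gbp9 less of the family in every knockout library. The shares of Gbp6 (3.32% to 6.38% against 2.04% to 2.51%) and Gbp2b also lay wholly higher in knockout. Those of Gbp7 (11.2% to 19.4% against 21.8% to 25.2%) and Gbp8 (2.17% to 2.35% against 2.93% to 4.74%) lay wholly lower. The other shares overlapped. Shares add up to a fixed whole, so a larger share of Gbp2 leaves less for the rest. The mean level of Gbp9 was itself higher in knockout, at 14.9 against 9.90 TPM.

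In each knockout library the members had the same order of level per length, from high to low Gbp2, Gbp7, Gbp3, Gbp9, Gbp5, Gbp6, Gbp4, Gbp8, Gbp2b and Gbp10. Among neighbours in this order, the knockout ranges of Gbp2 and Gbp7, Gbp7 and Gbp3, Gbp3 and Gbp9, and Gbp8 and Gbp2b did not overlap, and the others did. In wild type the order by mean was Gbp2, Gbp7, Gbp9, Gbp3, Gbp5, Gbp8, Gbp4, Gbp6, Gbp10 and Gbp2b, and it changed between libraries. There the range overlapped for every pair of neighbours but Gbp6 and Gbp10. Gbp9 was the most abundant member in wild type 2, and Gbp6 was below Gbp8 and Gbp4 in all 3 wild-type libraries.

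**Figure D4:**
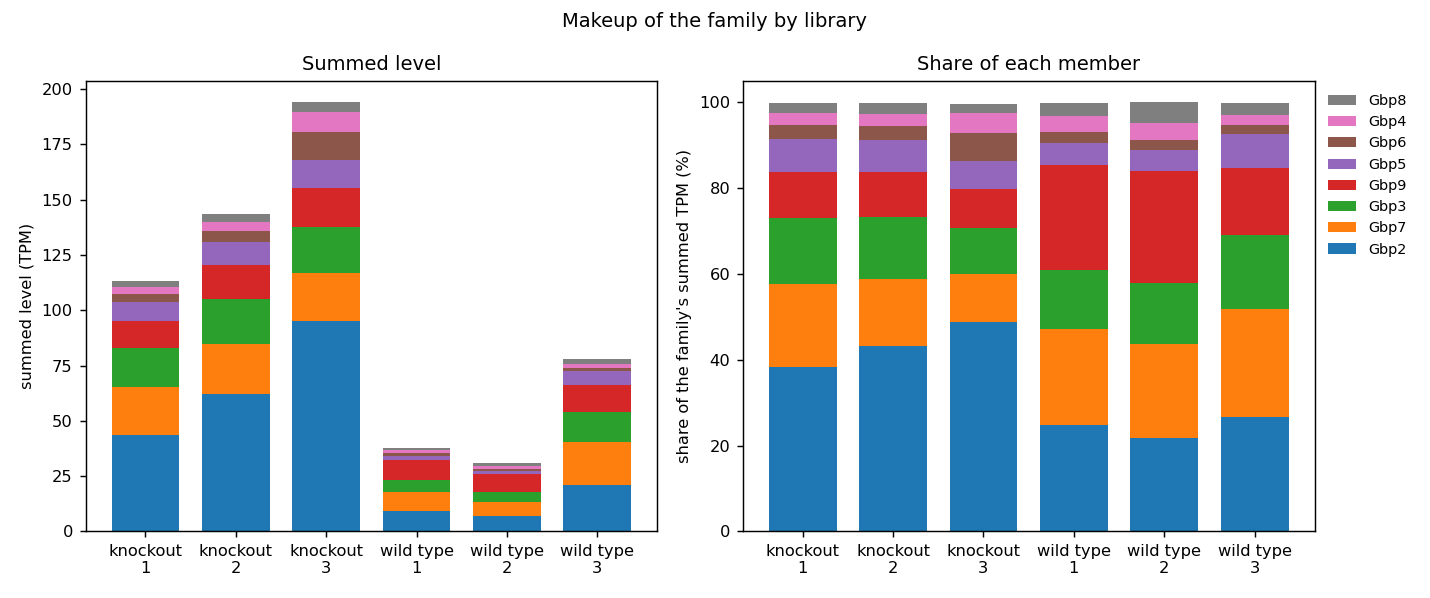
Summed level of the family in TPM (left) and the share of each member in percent (right) in knockout 1 to 3 and wild type 1 to 3; Gbp2b and Gbp10, together under 1%, are not drawn. Gbp2 takes 38.4% to 48.9% in knockout and 21.9% to 26.8% in wild type, and Gbp9 takes 8.96% to 10.7% and 15.7% to 26.3%.

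The members differed in how far library 3 departed from the other libraries of its group. Wild type 3 lay above the mean of wild type 1 and 2 by 1.36 to 1.81 on the log2 scale for Gbp2, Gbp3, Gbp5 and Gbp7 of chromosome 3. For the 4 tested members of chromosome 5 it lay above by 0.41 to 0.87. Gbp2b, also of chromosome 3, departed by 0.17, less than any of these, so the clusters do not lie apart over all 9 tested members; in wild type it rests on a single read. Knockout 3 lay above the mean of knockout 1 and 2 by 1.51 for Gbp6 and 1.36 for Gbp4, by 0.87 for Gbp2, and by -0.04 for Gbp7. So for Gbp3 and Gbp7 library 3 stood out in wild type and hardly in knockout, and for Gbp4 more in knockout than in wild type. These are single libraries, and the differences among members have no replicate check.

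Over the 36 pairs of tested members, the Pearson correlation across the 6 libraries had a median of 0.945 and ran from 0.746 to 0.997. These values include the genotype difference by which the members were chosen, so nothing is read from them. With each group's mean removed the median was 0.805, from 0.165 to 0.991. The lowest of these was the pair of Gbp2b and Gbp7, and Gbp2b had 0, 0 and 1 reads in wild type 1, 2 and 3. The points of these correlations are the same 6 libraries, and no p is given. The same median was not computed for pairs of other genes.

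**Figure D5:**
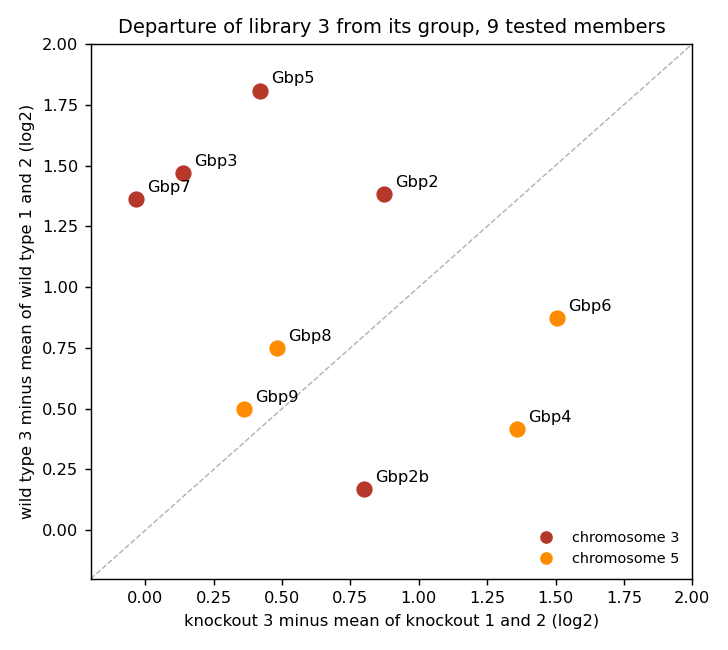
For the 9 tested members, the departure of knockout 3 from the mean of knockout 1 and 2 (horizontal) and of wild type 3 from the mean of wild type 1 and 2 (vertical), both as log2 differences. On the vertical axis Gbp2, Gbp3, Gbp5 and Gbp7 lie at 1.36 to 1.81, the 4 chromosome 5 members at 0.41 to 0.87 and Gbp2b of chromosome 3 at 0.17; Gbp6 and Gbp4 lie farthest right, at 1.51 and 1.36.

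Outside the family, 11066 named genes with a mean of at least 1 TPM were ranked by the correlation of their log2 level with the mean standardized profile of the tested members over the 6 libraries. The most alike were the Fc receptor gene Fcgr4 (Pearson r = 0.997), the ubiquitin ligase gene Trim21 (0.996), the serpin gene Serpina3g (0.991), the G protein subunit gene Gng11 (0.991), Serpina3f (0.990) and the protease gene Sppl2a (0.988). In all, 108 of the genes had an r of at least 0.9. Fcgr4 had 140.2 ± 17.4 TPM in knockout and 88.9 ± 18.4 TPM in wild type (n = 3 each, ± SD). This likeness includes the genotype difference by which the family was chosen.

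Genes of interferon gamma signalling were at hand in every library. In that list of 18 genes 0 passed the limma threshold, 17 had a positive log2 difference and the median was 0.16, where 51.1% of all genes were positive. The most abundant members were the phosphatase gene Ptpn6, the receptor gene Ifngr1 and the kinase gene Jak1. They had 448 ± 47, 203 ± 51 and 167 ± 8 TPM in knockout, against 453 ± 47, 196 ± 47 and 160.4 ± 16.0 TPM in wild type (n = 3 each, ± SD), all overlapping. Ifngr2, the other receptor chain, had 158 ± 18.0 TPM in knockout and 152 ± 20.5 TPM in wild type.

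Knockout and wild type did not overlap for 5 of the 18, all higher in knockout, as for 2.84% of all genes. Irf1 was among them. This gene, whose product binds ISRE sequences, had 70.2, 70.6 and 82.5 TPM in knockout 1, 2 and 3, against 31.4, 33.3 and 53.9 TPM in wild type 1, 2 and 3. Library 3 was the highest of its group in each genotype, as it was for Gbp2. The log2 difference of Irf1 was 0.95 ± 0.21.

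Ifng itself, which T and NK cells make, had 5, 8 and 9 reads in knockout 1, 2 and 3, against 4, 4 and 3 reads in wild type 1, 2 and 3. By TPM the groups overlapped. Most T and NK cell markers also lay higher in knockout. Of 19 markers 16 are in the table, and 15 had a higher mean in knockout. For 11 the groups did not overlap, all higher in knockout. Over all genes tested 51.1% had a log2 difference above 0, and 2.84% had knockout wholly above wild type. Those shares are over genes that passed the filter on low values, and the markers were not filtered. Prf1 and Tbx21, both among the 11, did not reach 0.1 TPM in 3 libraries. Cd3e, Gzmb, Il2rb and Eomes did so through the knockout libraries alone. The summed level of the 16 markers was 8.90 to 13.3 TPM in knockout and 5.62 to 6.93 TPM in wild type. In wild type most of this sum was Nkg7 and Cd2, at 3.35 and 1.77 TPM in wild type 3. Cd2 was the marker whose mean was lower in knockout. Cd3e, Gzmb, Prf1, Ncr1, Eomes and Tbx21 were at 0 reads in at least 1 library, and no marker was at 0 in all. Wild type 3, with the highest family total of wild type at 78.2 TPM, had 6.50 TPM of these markers, between wild type 1 and 2 (6.93 and 5.62 TPM). Knockout 2 and 3 both had 13.3 TPM of them, at family totals of 144 and 195 TPM. The part of these cells in the result was not tested.

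For no other cell type did the marker sums of knockout lie wholly above those of wild type. B and plasma cell markers summed to 56.7 to 96.8 TPM in knockout and 90.9 to 116 TPM in wild type, erythroid markers to 31.0 to 56.3 and 49.2 to 89.8 TPM, and stromal markers to 5.31 to 5.56 and 6.36 to 7.21 TPM. Dendritic cell markers summed to 8.91 to 11.8 TPM in knockout and 8.01 to 11.9 TPM in wild type, and neutrophil markers to 6212 to 7171 and 5145 to 7483 TPM. The 9 macrophage markers summed to 18605 to 25833 TPM in knockout and 32722 to 47017 TPM in wild type, most of it Lyz2, while 7 of the 9 had a higher mean in knockout. The part of these markers in the family's difference was not tested.

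The immunity-related GTPases, a smaller GTPase family that acts on the same vacuoles, lay higher too. Of 12 genes 0 passed the limma threshold, 12 had a positive log2 difference, the median was 0.76, and the groups did not overlap for 9, all higher in knockout, against 2.84% of all genes. The most abundant over all 6 libraries were Irgm1, Ifi47 and Irgm2. They had 166 ± 37, 80.8 ± 16.8 and 48.0 ± 3.9 TPM in knockout, against 104 ± 27, 46.7 ± 12.8 and 31.4 ± 10.4 TPM in wild type (n = 3 each, ± SD). Their log2 differences were 0.68 ± 0.23, 0.81 ± 0.23 and 0.66 ± 0.22, and less abundant genes of the list had larger ones. Iigp1, which acts on vacuoles of Toxoplasma and is named after its values were seen, had 23.7, 40.2 and 104 TPM in knockout 1, 2 and 3, against 2.92, 2.50 and 6.97 TPM in wild type 1, 2 and 3. Its log2 difference of 3.61 ± 0.60 was above that of every tested GBP member, and library 3 was the highest of its group in each genotype. Those of F830016B08Rik, Tgtp2 and Gm4951, likewise named after their values were seen, were 2.50 ± 0.45, 2.00 ± 0.46 and 1.86 ± 0.40.

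Most other large GTPases of the dynamin kind lay near level. Of 13 genes 11 were tested, with a log2 difference above 0 for 6 and below 0 for 5, the median was 0.01, 0 passed and all groups overlapped. Dnm2, Atl3 and Dnm1l, which act in membrane fission and fusion, had 143 ± 6, 90.5 ± 3.2 and 81.4 ± 7.2 TPM in knockout, against 142 ± 2, 83.5 ± 4.6 and 81.8 ± 8.8 TPM in wild type. The interferon-induced members of the list had larger differences, at 0.59 ± 0.39 for Mx1, 0.52 ± 0.27 for Gvin1 and 0.32 ± 0.28 for Mx2 on the log2 scale, and were named after their values were seen. Mx1 had 29.5 ± 13.2 TPM in knockout and 19.5 ± 7.5 TPM in wild type.

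Genes that place or modify GBPs, such as the autophagy conjugation genes and the prenylation enzymes that anchor some GBPs in membranes, were near level. Of 22 genes 0 passed, the log2 difference was above 0 for 15 and below 0 for 7, and the median was 0.03. Sqstm1, Gabarap and Ube2l3 had 1199 ± 382, 958 ± 96 and 151 ± 16 TPM in knockout, against 963 ± 97, 957 ± 108 and 157 ± 11 TPM in wild type. The groups did not overlap for 1 gene, Trim21, against 2.84% of all genes. It had 50.3 ± 2.3 TPM in knockout and 43.1 ± 2.8 TPM in wild type.

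Most genes of the inflammasome list, not all of which depend on GBPs, lay near level. Of 14 tested genes 0 passed, the log2 difference was above 0 for 11 and below 0 for 3, and the median was 0.07. Ninj1, Casp1 and Casp8 had 598 ± 74.5, 213 ± 23.5 and 119.6 ± 5.03 TPM in knockout, against 553 ± 122, 183 ± 4 and 118 ± 4 TPM in wild type. Casp4, the mouse caspase-11 gene, whose product senses lipopolysaccharide that GBPs expose, had 36.6, 36.1 and 36.5 TPM in knockout 1, 2 and 3, against 24.5, 22.8 and 35.0 TPM in wild type 1, 2 and 3. As for Gbp7, the knockout libraries were level and wild type 3 came close to them. The groups did not overlap for Casp1, Casp4 and Aim2, higher in knockout, nor for Il1a, which was lower, against 2.84% and 2.27% of all genes. The log2 differences were 0.43 ± 0.16 for Casp4 and -0.65 ± 0.21 for Il1a. Aim2 and Il1a are named after their values were seen.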

How the data were processed

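RNA of 6 bone marrow cultures was sequenced in strand-specific total RNA libraries, per the labels' protocols. Tools in the submitters' processing notes are edgeR, featureCounts, Subread, Picard 1.127, TopHat2 2.0.12 and FastQC 0.11.2, with mm10 as the build (roles, order, annotation, counting options: not given in the sources used here). What the authors deposited are TPM values per gene and library, a unit read from the values, which sum to 1000000 per library. The table also holds, per the file headers, the authors' log2 fold change (positive in knockout, from the values), mean log2 CPM, a likelihood ratio score and p-values. Gene starts count from 0 there and are printed counting from 1.

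Whole reads, and so depth, were recovered from ratios of TPM values between libraries, within 0.01 of a read for 100% of 94034 values. The whole numbers were fitted to these same ratios, so that share does not check them. Common factors were set from the authors' mean log2 CPM. On simulated reads 95.9% of 2931 genes were recovered exactly, and 99.96% of those with a mean of at least 5 reads. A library with 0 reads allows up to 3 reads; floors and intervals (exact, 95%) cover counting error only.

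The genotypes were compared by limma 3.58.1 (R 4.3.3) on log2(TPM + 0.1), two-sided and with a mean-variance trend. The 13722 genes that reached 0.1 TPM in 3 or more libraries entered, and the threshold was a Benjamini-Hochberg adjusted p of 0.05. The fold change so computed understates low genes. With 3 against 3 libraries the smallest p of an exact permutation test is 0.1, so none was made. These p-values reflect only the spread between the samples. On simulated reads the fit recovered 91% of 100 genes changed 2-fold and 100% of 100 changed 4-fold among 13699 genes, with 20 false calls, at a simulated dispersion of 0.02. These shares hold for that spread only: Gbp2, with a ratio of means of 5.41, did not pass in the real libraries. Members, lists, markers, filter and pseudocount were chosen with earlier results of these data known. All members are named; of each list the 3 most abundant genes and a few fixed genes are named (1 of these is not reported here), and for likeness the 6 genes with the highest r. Irgb10, Adgre1, Trac, Trbc1, Trbc2, Jchain and Ly6g of the lists were not analysed here. Alternatives were other pseudocounts, filters and scaling, limma-voom on reads, a replicate block, and libraries left out. Promoters are from RefSeq (GRCm38.p6).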

Additional observations from a re-analysis of the deposited data

How the results depend on the processing

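The log2 difference of all 9 tested members stayed positive under every alternative tried that tested them. As the members were chosen with this contrast known, that describes the settings and supports nothing. Over the 8 members measured in every library the median was 1.60. The median over the 9 tested members, Gbp2b included, was 1.67. It was 1.27 with 1 TPM added before the log and 1.72 with 0.01 TPM added, 1.60 without a filter (10 members) and with the filter of 1 TPM (8 members), 1.67 with median-of-ratios scaling and 1.70 with limma-voom on reads. With single libraries left out it ran from 1.48 without knockout 3 to 2.00 without knockout 1. The median over all genes ran from -0.01 to 0.01 over these settings. With all 6 libraries limma called 0 genes under every setting, and 299 genes had an unadjusted p below 0.05. That number was 1017 after wild type 3 was left out, and 487 with no filter. Without both knockout 3 and wild type 3, 694 genes were higher and 706 lower, 7 of them members, and the members' median was 1.59; genotype and the first principal component then coincide. With a replicate block 0 genes were called and the median was 1.67. It is not said whether the replicate numbers pair the libraries. Deviations of same-numbered libraries from their group means correlated at -0.24, -0.15 and -0.53. Those of differently numbered libraries correlated at -0.30 to 0.43. Knockout 3 and wild type 3 lay at opposite ends of the first principal component, so these correlations cannot decide on pairing. Depth limits Gbp2b and Gbp10, with 1 and 5 reads in all of wild type.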

Other observations

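Gbp11, annotated as a polymorphic pseudogene in GENCODE M21 and lying beyond Gbp6 at chr5:105323026-105346472, is outside the list of members and was looked at after its values were seen. It had 26, 16 and 19 reads in knockout 1, 2 and 3, against 5, 7 and 9 reads in wild type 1, 2 and 3. The groups did not overlap by TPM, and the log2 difference was 0.94 ± 0.22. Of its stretches of 50 bases, 19.2% also occur in transcripts of another gene, and 9.57% in those of Gbp8.

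ISRE cores were also counted in the promoter windows of the other lists. They were found in 6 of 9 immunity-related GTPases with a window, which are 9930111J21Rik1, Igtp, Irgm1, Irgm2, Tgtp1 and Tgtp2. The knockout and wild-type groups overlapped for 9930111J21Rik1 and lay apart for the others of these. Of 14 interferon gamma signalling genes 3 had a core (Irf2, Socs1 and Stat2). Among genes that place or modify GBPs 1 of 16 had a core, Trim21, which also was among the genes most alike to the family over the libraries. No core was found in 13 inflammasome genes or 10 other large GTPases with a window. These counts are descriptions, to be set beside the 3.99% of 27025 genes with a window that hold a core.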
